A study of Rattus norvegicus with 4 samples.

Results

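Th, Ddc, Dbh and Maoa code for enzymes that make and break down the catecholamines dopamine, noradrenaline and adrenaline. They are 4 of the 720 genes that the probe table names on the array. It gave these symbols to 7 of the 1263 probe sets other than controls on the array, 1 for Th, 2 for Ddc, 1 for Dbh and 3 for Maoa, and all 7 were kept because their symbol matched exactly. Total RNA of rat samples with a source name of brain and adrenal medulla had been measured on 4 arrays. The groups were digested day 7, undigested day 7, digested day 1 and undigested day 1, with 1 array each. The labels name no strain, sex or age, do not say what was digested, and do not say whether a sample pooled several animals or cultures. No question of the study beyond the 2 contrasts, digestion and day, is stated in the sources used here.

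In chromaffin cells and catecholamine neurons, tyrosine hydroxylase makes DOPA from tyrosine and sets the pace of the pathway. Aromatic amino acid decarboxylase then makes dopamine, and dopamine beta-hydroxylase, inside the storage vesicles, makes noradrenaline. Monoamine oxidase A, on the outer membrane of mitochondria, oxidises noradrenaline and serotonin, and dopamine as well. Transcription of rat Th is known to respond to cyclic AMP through the cyclic AMP response element (CRE) just upstream of its start.

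With 1 array per group there was no spread between replicates, so differences are given as sizes, and 2-fold (a log2 difference of 1) is a size and not a test. Signals are linear array intensities scaled to a common median, and signals of different probe sets are not compared, since each has its own brightness. A signal of 51.8, the 20th percentile of all values, served as the floor. The 632 brighter probe sets were analysed, and all 7 of the 4 genes passed this filter through every array, their lowest signal being 1711. The labels do not say whether a sample held both tissues, 1 of them or cultured cells. In total RNA of a whole sample, fewer cells of a type and less RNA per cell cannot be told apart.

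The arrays differed in control signals that touch the comparisons below. For beta-actin, the 3′ signal over the 5′ signal, which increases when labelled RNA is incomplete, was 1.35 for the digested and 2.66 for the undigested sample at day 7, against 1.48 for the digested and 1.42 for the undigested sample at day 1. The other 2 such controls differed much less. In the same order of arrays, the ratio was 1.10, 1.18, 1.04 and 1.01 for GAPDH and 1.05, 1.40, 1.20 and 1.31 for hexokinase. Bacterial hybridisation controls, read by 9 probe sets, had a median log2 value against the other arrays of -1.35 on the digested day 7 array, against 0.33 to 0.57 on the others. The scaling itself also matters: leaving the values as deposited moved the median log2 difference of the analysed probe sets by 0.14 for day 7 digestion, by -0.13 for day 1 digestion and by -0.23 for the day without digestion, and quantile normalisation and cyclic loess moved the last by -0.17 each. Values relative to the median of all analysed probe sets are therefore given beside the main ones.

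The stretches upstream of 3 of the genes are shown because the transcript levels compared here are set in part at these starts. RefSeq lists 1 start each for Th, Dbh and Maoa in its GRCr8 assembly and 3 for Ddc, whose windows are not printed. Each sequence is the 250 bases before the listed start, 5′ to 3′ on the gene's own strand: chr1:207508219-207508468 on the minus strand for Th, chr3:30886078-30886327 on the plus strand for Dbh and chrX:8681373-8681622 on the minus strand for Maoa. Capitals mark TGACG on either strand, which is one arm of a CRE, and the GC box GGGCGG on either strand.
Th: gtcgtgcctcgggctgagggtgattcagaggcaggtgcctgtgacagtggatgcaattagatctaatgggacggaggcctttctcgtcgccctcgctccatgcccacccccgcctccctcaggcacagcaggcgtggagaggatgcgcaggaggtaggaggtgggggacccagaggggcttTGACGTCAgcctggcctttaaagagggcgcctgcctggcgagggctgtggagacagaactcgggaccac
Dbh: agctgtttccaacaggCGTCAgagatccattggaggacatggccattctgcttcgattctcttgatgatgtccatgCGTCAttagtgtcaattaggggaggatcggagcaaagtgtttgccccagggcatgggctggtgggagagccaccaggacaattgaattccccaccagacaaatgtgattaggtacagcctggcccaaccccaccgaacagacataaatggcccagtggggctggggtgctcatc
Maoa: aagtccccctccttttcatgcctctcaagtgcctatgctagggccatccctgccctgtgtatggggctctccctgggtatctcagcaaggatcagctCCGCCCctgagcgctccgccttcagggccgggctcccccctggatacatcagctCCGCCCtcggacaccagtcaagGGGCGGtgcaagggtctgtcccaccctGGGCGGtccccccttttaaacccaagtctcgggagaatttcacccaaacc

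The Th window held the full palindromic CRE, TGACGTCA, beginning 69 bases before the listed start, and 1.59% of the 33469 rat windows of this length hold these letters. It also held TGATTCA, a match to the AP-1 site TGANTCA (N is any base), beginning 230 bases before the start. Of all windows, 6.34% hold an AP-1 match. The Dbh window held 2 single CRE arms, beginning 234 and 174 bases before the start, and no full CRE; 18.2% of all windows hold at least 1 arm on either strand. The second of them overlaps TCATTA, a match to the homeodomain core TAATNA on the other strand, which 25.4% of windows hold. Another match to this core in the Dbh window, TGATTA, begins 70 bases before the start. The Maoa window held 4 GC boxes, a pair on each strand, and no CRE arm, where 30.5% of windows hold a GC box. None of the 3 Ddc windows held a CRE arm or a GC box. These matches describe letters and were not tested against the signals.

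Th, whose enzyme is the rate-limiting one, was lowest on the digested day 7 array. Its signal was 163625 in the digested and 256725 in the undigested sample at day 7, against 233350 in the digested and 221633 in the undigested sample at day 1. The other 3 values lie close together, and the highest is 1.57-fold above the lowest. At day 7 the digested sample was 1.57-fold lower than the undigested one (log2 -0.65, or -0.60 relative to the median of all analysed probe sets), while at day 1 the log2 difference was 0.07, or -0.05 relative to the median. Between day 7 and day 1 the log2 difference was -0.51 in digested samples and 0.21 in undigested samples.

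The Th probe set had the highest signal of all 1263 on each of the 4 arrays, which limits how firmly its differences can be read. Quantile normalisation gives the brightest probe set the same value on every array and so sets all its differences to 0 by construction. Cyclic loess, which also pulls the bright end together, left a log2 difference of -0.29 for digestion at day 7 and -0.31 for the day in digested samples. In the values as deposited these were -0.51 and -0.47. No flag for saturated signals was used here, and a limit of the scanner at this brightness was not tested.

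Ddc was brightest in the undigested sample at day 7 by both of its probe sets. The brighter one, M84648mRNA_s_at, had a signal of 68611 in the digested and 88923 in the undigested sample at day 7, against 51146 in the digested and 46082 in the undigested sample at day 1. Both day 7 values lie above both day 1 values. The log2 difference between day 7 and day 1 was 0.42 in digested samples and 0.95, or 1.93-fold higher, in undigested samples. Between digested and undigested samples it was -0.37 at day 7 and 0.15 at day 1.

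The other Ddc probe set, rc_AI044610_s_at, gave larger differences and another order of the arrays. Its signal was 14407 in the digested and 33436 in the undigested sample at day 7, against 15197 in the digested and 9705 in the undigested sample at day 1. Here 1 array stands well above the other 3, and the digested samples of both days nearly coincide (log2 -0.08 for day 7 minus day 1). In undigested samples the gene read 3.45-fold higher at day 7 than at day 1 (log2 1.78), and only 0.791% of the analysed probe sets had a difference at least as high. At day 7 the digested sample was 2.32-fold lower than the undigested one (log2 -1.21), and at day 1 it was 1.57-fold higher (log2 0.65).

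Dbh, which makes noradrenaline, had the same order of arrays as the brighter Ddc probe set. Its signal was 2961 in the digested and 4175 in the undigested sample at day 7, against 2461 in the digested and 1711 in the undigested sample at day 1. Day 7 values were above day 1 values in both digestion states, with a log2 difference of 0.27 in digested samples and 1.29, or 2.44-fold, in undigested samples. At day 7 the digested sample was 1.41-fold lower (log2 -0.50), and at day 1 it was 1.44-fold higher (log2 0.52). The day difference in undigested samples stayed above 2-fold under all 5 scaling and floor alternatives, with log2 values of 1.03 to 1.29, and was 1.03 to 1.12 relative to the median of the analysed probe sets over the 4 scalings.

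Maoa, the only enzyme of breakdown among the 4 genes, was lower at day 7 than at day 1 by all 3 of its probe sets in both digestion states. S45812_s_at read 10232 in the digested and 10528 in the undigested sample at day 7, against 13914 in the digested and 12877 in the undigested sample at day 1. D00688_s_at read 7719 in the digested and 7399 in the undigested sample at day 7, against 10048 in the digested and 9406 in the undigested sample at day 1. For these 2 probe sets the day 7 values lie below the day 1 values without overlap, and within a day the digested and undigested samples are close. rc_AI105223_s_at read 5579 in the digested and 8337 in the undigested sample at day 7, against 9704 in the digested and 9501 in the undigested sample at day 1. Its digested day 7 value stands below the other 3.

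The 6 day differences of Maoa were all negative and all short of 2-fold. In digested samples they were -0.44, -0.38 and -0.80 on the log2 scale, and in undigested samples -0.29, -0.35 and -0.19, for S45812_s_at, D00688_s_at and rc_AI105223_s_at in that order. Each stayed negative under all 5 scaling and floor alternatives. Relative to the median of the analysed probe sets they ran from -0.91 to -0.42 in digested samples and from -0.56 to -0.22 in undigested samples over the 4 scalings. Of the analysed probe sets, 24.4% were lower at day 7 in both states, so this direction is not rare in the data, and the 3 probe sets share 1 gene and the same 4 RNA samples.

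**Figure D1:**
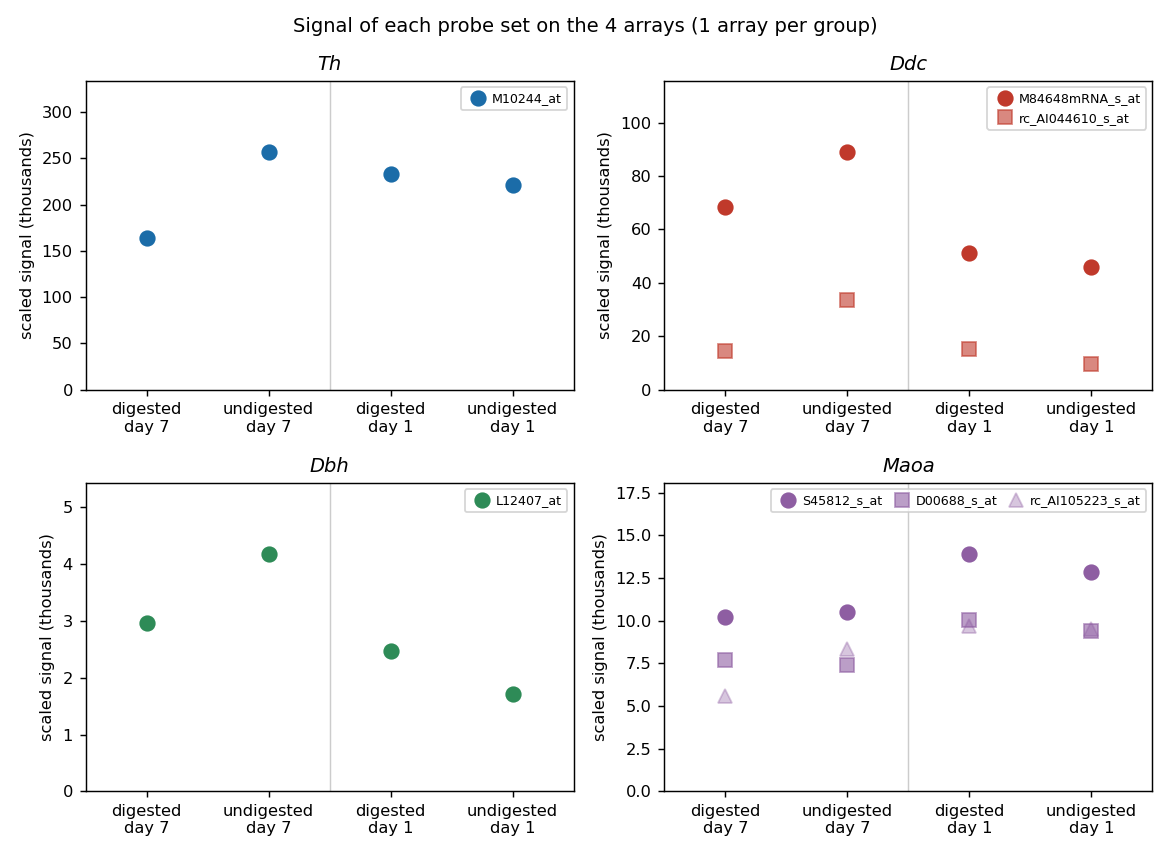
Scaled signal (vertical axes, from 0, own scale for each gene) on the 4 arrays for each probe set of Th, Ddc, Dbh and Maoa, 1 point per array and no error bars because each group had 1 array. The undigested day 7 array is highest for Th, Dbh and both Ddc probe sets, and the 3 Maoa probe sets are lower on both day 7 arrays than on either day 1 array.

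With digestion at day 7 the 4 genes read mostly lower. Of the 7 probe sets 6 were lower in the digested sample, as were 55.5% of all analysed, with a median log2 difference of -0.50, against a median of -0.05 over the 632 analysed. Relative to that median, 5 were lower and both Maoa probe sets without a tag name were slightly higher, at 0.01 for S45812_s_at and 0.11 for D00688_s_at. Past 2-fold there was 1 of the 7, the lower rc_AI044610_s_at of Ddc, where 11.4% of the analysed probe sets passed in either direction and 4.43% were at least 2-fold lower. A share of 1 in 7 is near that background, which includes many dimmer probe sets. Among the brighter 316 analysed probe sets only 12 passed, 10 higher and 2 lower. The 1 in 7 was not tested against either count.

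At day 1, most of the 7 digestion differences lay close to the median of all analysed probe sets. All 7 log2 differences were above 0, from 0.03 to 0.65, but so were those of 71.2% of the analysed probe sets under this scaling, and the medians were 0.11 for the 7 and 0.12 for all. Relative to that median 3 were higher and 4 lower. The ones that stand out upward were Dbh, at 0.40 relative to the median, and rc_AI044610_s_at of Ddc, at 0.53, and both remained above 0 in every scaling. None of the 7 passed 2-fold, against 3.48% of the analysed probe sets.

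With median scaling, the digestion difference thus changed sign between the days for 6 of the 7 probe sets, positive at day 1 and negative at day 7. This is a pattern that 40.3% of all analysed probe sets share. The exception was D00688_s_at of Maoa, with log2 differences of 0.06 at day 7 and 0.10 at day 1. The signs of Th and Maoa at day 1 rest on the scaling, since in the values as deposited Th stood at -0.05 and the 3 Maoa probe sets at -0.10 to -0.02. The day 7 sign of S45812_s_at of Maoa does so too. It stood at -0.04 with median scaling, 0.10 in the values as deposited and 0.04 with cyclic loess. The sign change of Dbh and of both Ddc probe sets held in all 5 scaling and floor alternatives.

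Between the days, Dbh and the brighter Ddc probe set read higher at day 7 in both digestion states and the 3 Maoa probe sets lower. Th was lower at day 7 in digested samples (log2 -0.51) and slightly higher in undigested samples (0.21). The latter sign changed in the values as deposited (-0.02) and with cyclic loess (-0.04). In undigested samples Dbh and rc_AI044610_s_at of Ddc were at least 2-fold higher at day 7, so 2 of 7 passed, where 13.3% of the analysed probe sets passed in either direction and 7.28%, or 46 probe sets, did so upward. The upward number was 20 in the values as deposited, and those 2 probe sets stayed past 2-fold there. The brighter Ddc probe set was just short at 1.93-fold, and the 3 Maoa probe sets were below 0. In digested samples none of the 7 passed, against 8.07% of all analysed. Across both states, Dbh and the brighter Ddc probe set were higher at day 7 each time, as were 37.2% of the analysed probe sets. The day 7 undigested array enters both the digestion difference at day 7 and the day difference in undigested samples, so its high values of Dbh and Ddc appear in both.

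**Figure D2:**
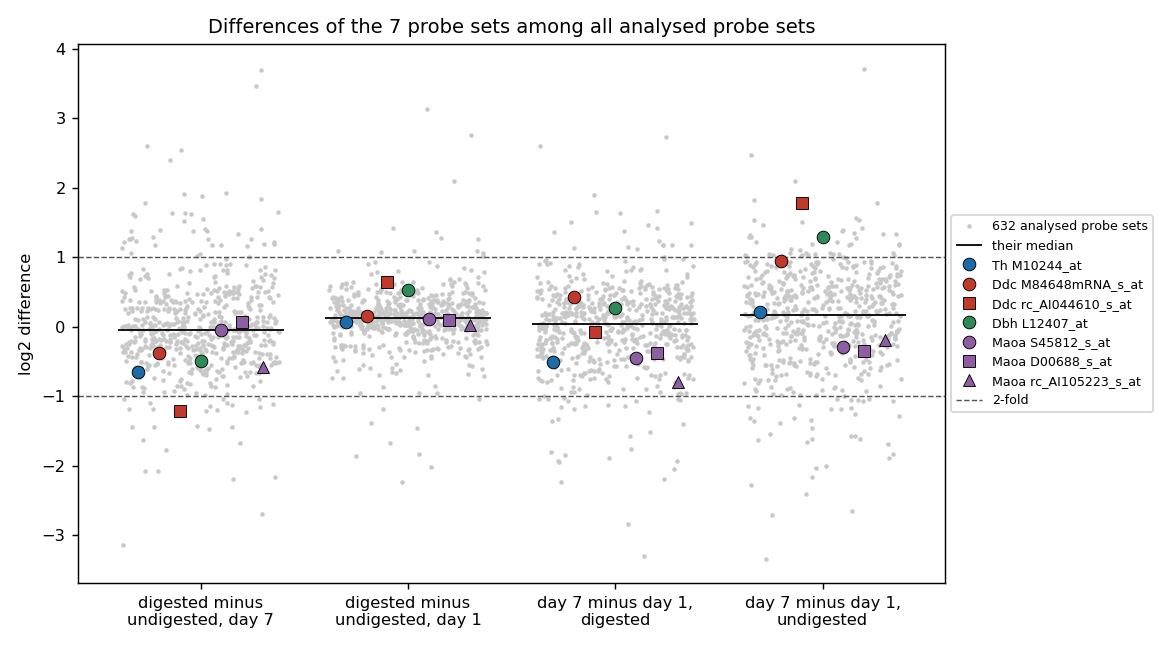
Log2 differences (vertical axis) in the 4 comparisons for the 7 probe sets (coloured, black edge) among all 632 analysed probe sets (grey), with the median of all as a black bar and dashed lines at 2-fold. The 2 points past 2-fold in undigested samples are Dbh at 1.29 and a Ddc probe set at 1.78, and the one at day 7 for digestion is the same Ddc probe set at -1.21.

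A fit of digestion and day to all 4 arrays together left 1 residual degree of freedom. That degree of freedom also holds whatever differed in the digestion response from one day to the other. With limma over the 632 probe sets, the day estimate of Dbh was a log2 of 0.78 with a standard error of 0.35 and an adjusted p of 0.368, and it was higher in both states. The day estimates of Ddc were 0.69 (adjusted p 0.380 with limma) and 0.85 (adjusted p 0.415), and those of Maoa ran from -0.49 to -0.36 with limma adjusted p of 0.532 to 0.592. That of Th was -0.15, with a limma adjusted p of 0.865. For digestion every one of the 7 had a limma adjusted p of 0.999. In the same fits 0 probe sets (0%) had a limma adjusted p under 0.05 for digestion, with 42 under 0.05 unadjusted, and 1 (0.158%), of Gsta1, had one for the day, with 91 unadjusted, so none of the 4 genes passed this test.

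The probe sets of a gene gave somewhat different sizes. The log2 differences of the Ddc pair lay 0.84 (day 7) and 0.50 (day 1) apart for digestion, and 0.50 (digested samples) and 0.84 (undigested samples) apart for the day. These gaps are standard deviations of 0.59, 0.35, 0.35 and 0.59, close to the pooled standard deviation between probe sets of a gene, which over 125 genes with several was 0.52, 0.32, 0.41 and 0.52. The 3 Maoa probe sets were closer together, with standard deviations of 0.34, 0.04, 0.23 and 0.08. By this pooled measure, which takes in many dimmer probe sets, the gaps between the 2 Ddc probe sets are only slightly wide or less. For the digestion difference at day 7 less that at day 1, the Ddc standard deviation was 0.95, against a pooled 0.60. In each gene the name of 1 probe set, the one lowest for digestion at day 7, begins with rc and carries the accession of an expressed sequence tag, a short read of a cDNA clone.

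Over the 44 genes that had an analysed probe set of this kind and another kind, the tag-named ones gave a median log2 digestion difference 0.13 lower than the others at day 7, lower in 25 genes and higher in 19. Ddc (-0.84) had 2 of the 44 genes below it and Maoa (-0.59) had 6, and without them the median of the other 42 was -0.06. At day 1 the median was 0.06, with Ddc at 0.50 and Maoa at -0.07. The beta-actin 3′ to 5′ ratio of 2.66 on the undigested day 7 array stands beside these values, with 1.18 for GAPDH and 1.40 for hexokinase there. The part of these ratios in the differences was not tested. The comparison was chosen after the values of both genes were seen.

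**Figure D3:**
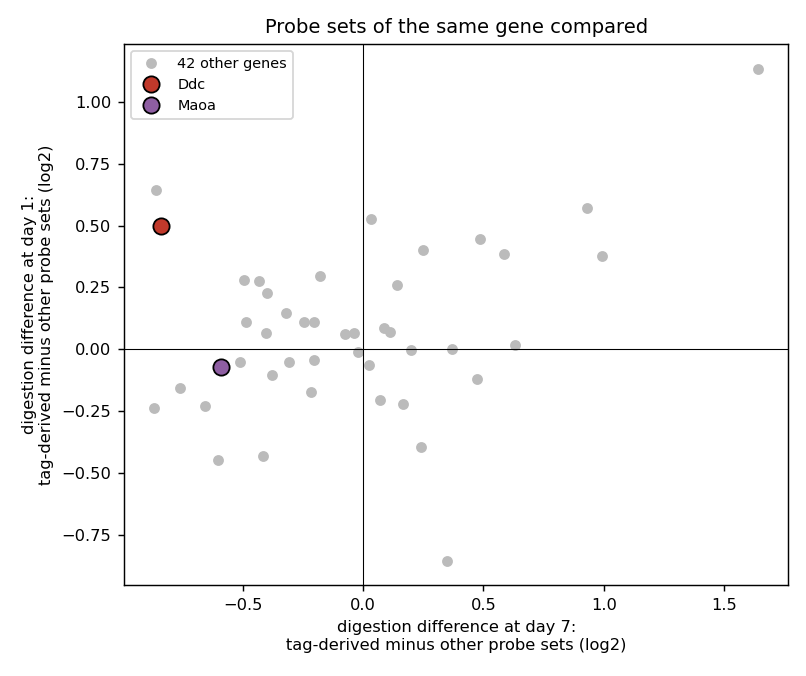
Difference between tag-named and other probe sets of the same gene in the log2 digestion difference at day 7 (horizontal axis) and at day 1 (vertical axis), 1 point per gene for 44 genes. Ddc sits at -0.84 and 0.50 and Maoa at -0.59 and -0.07, to the left of most of the 42 other genes (grey).

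The patterns of the 4 genes over the arrays were compared by the root mean square distance between their log2 values, each centred on its own mean and taken from the brightest probe set. Ddc and Dbh were nearest to each other, at 0.15. Th lay nearer to Maoa (0.24) than to Ddc (0.43) or Dbh (0.49), and Maoa was farthest from Dbh (0.61). The distance of a gene to all 384 other named genes with an analysed probe set had a median of 0.35 to 0.46, so Ddc and Dbh stood closer than most pairs and Th did not stand close to either. With 4 arrays this is a description only.

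By the same distance each gene had closer company elsewhere on the array. Nearest to Th were Sv2a, a synaptic vesicle protein gene (0.06), the cytokine gene Il18 (0.07), the calmodulin kinase gene Camk1 (0.08) and the aconitase gene Aco1 (0.08). Nearest to Ddc were the chloride transporter gene Clcn3 (0.04), the cell death gene Bax (0.04), the mitochondrial chaperonin gene Hspe1 (0.05) and the heme oxygenase gene Hmox1 (0.06). Nearest to Dbh were the adhesion gene Ncam1 (0.06), the glucose transporter gene Slc2a1 (0.06), the signalling gene Smad4 (0.08) and the phospholipase gene Pla2g6 (0.10). Nearest to Maoa were the homeobox gene Isl2 (0.04), the tubulin gene Tubb5 (0.06), the G protein gene Gnb1 (0.07) and the syntaxin gene Stx1a (0.07).

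**Figure D4:**
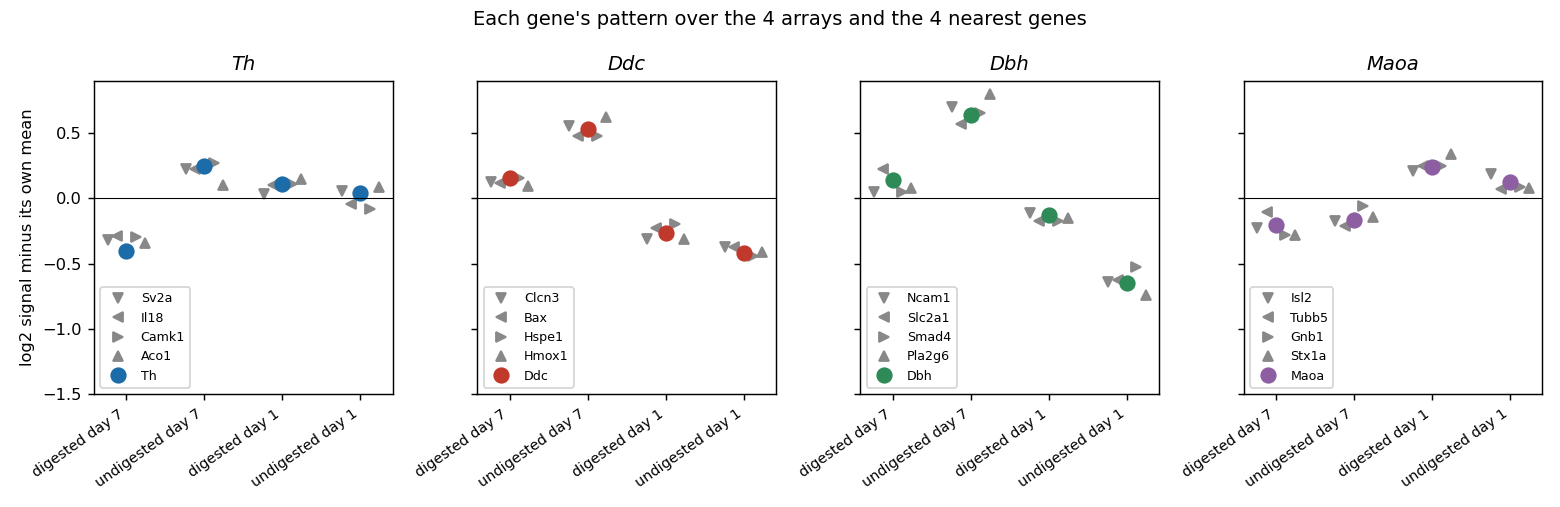
Log2 signal minus its own mean over the 4 arrays (vertical axis) for the brightest probe set of Th, Ddc, Dbh and Maoa (large points) and for the 4 genes nearest to each (grey). Ddc and Dbh share the order undigested day 7, digested day 7, digested day 1, undigested day 1 from high to low, Th is set apart by its low digested day 7 value, and Maoa is lower on both day 7 arrays.

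Of 26 other genes of monoamine synthesis, transport, breakdown and reception that were listed, 10 were named on the array and 3 of these were analysed. Tph1, which codes for an enzyme of serotonin synthesis, was 2.64-fold lower at day 7 in digested samples and 2.09-fold lower in undigested samples. Slc6a4, the serotonin transporter gene, was 2.09-fold higher in the digested sample at day 1, with its other probe set among the dim ones. Leaving the values as deposited moves that contrast by -0.13, so this call, at log2 1.06, rests on the scaling. Adora2a, an adenosine receptor gene, had log2 differences of -0.09 for digestion at day 7 and 0.10 at day 1, and of 0.39 and 0.58 for the day in digested and undigested samples. So 0 of 3 passed 2-fold for digestion at day 7 (11.4% of all analysed probe sets), 1 at day 1 (3.48%), and 1 for the day in digested (8.07%) and in undigested samples (13.3%).

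The other 7 were dim, and their differences are not ranked. Slc18a2, the vesicular monoamine transporter gene, had signals of 161, 113, 82.1 and 31.3 by the brighter of its 2 probe sets on the digested and undigested day 7 and the digested and undigested day 1 arrays. Maob, the gene of the second monoamine oxidase, had 39.1, 11.1, 144 and 74.9 in the same order, so it was under the floor on both day 7 arrays. The dopamine transporter gene Slc6a3, the dopamine receptor genes Drd1 and Drd2 and the adrenergic receptor genes Adra2a and Adra2c also stayed at or under 359 by every probe set. Pnmt, which makes adrenaline from noradrenaline, and Gch1, whose product is needed to make a cofactor of tyrosine hydroxylase, were among the 16 with no probe set of that name.

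Of 36 listed genes known from rat or mouse to act on Th, 14 were named on the array and 12 were analysed. Each gene was counted by its brightest probe set. For digestion at day 7, 2 of the 12 were at least 2-fold higher and 0 lower, against 44 higher and 28 lower of the 632 analysed probe sets. These were the orphan receptor gene Nr4a3 (log2 3.46) and Jund, an AP-1 subunit gene (log2 1.79), both resting on undigested day 7 signals of 65.2 and 104. At day 1 none of the 12 passed by this count, against 13 higher and 9 lower of the 632. For the day in digested samples 1 of the 12 was higher, Nr4a3 (log2 1.64), and 0 lower, against 21 higher and 30 lower of the 632. In undigested samples 1 was higher, Egr1 (log2 1.02), and 3 lower, Nr4a3 (-2.16), Jund (-1.84) and Jun (-1.31). Of the 632, 46 were higher and 38 lower there. Leaving the values as deposited moves this contrast by -0.23, so the Egr1 call rests on the scaling. Other probe sets of the listed genes often disagreed. The 2 dim ones of Nr4a3 had the opposite sign, at -1.60 and -1.37 for digestion at day 7 and 1.60 and 1.19 for the day in undigested samples. For Egr1 the day difference in undigested samples was 0.05 by the other analysed probe set, and -1.16 and 1.64 by the dim ones. A second analysed probe set of Nr4a1, U17254_g_at, stood at -1.44 for digestion at day 7, 1.07 at day 1 and 1.83 for the day in undigested samples, against 0.49, 0.94 and 0.46 by the brightest. For Fos, X03347cds_g_at stood at 1.23 for digestion at day 7 and -1.06 for the day in undigested samples, against -0.15 and 0.48 by the brightest. Creb1, whose product binds the CRE, had log2 differences of 0.57 and 0.03 for digestion at day 7 and day 1, and Crem, a related gene, 0.20 and 0.12. The medians of the 12 were 0.30, 0.05, 0.21 and -0.06 for the digestion contrasts at day 7 and day 1 and the day contrasts with and without digestion, against -0.05, 0.12, 0.04 and 0.17 over all analysed.

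Marker genes of cell types were read on the same arrays, and their differences between arrays do not test the labelled tissue. Of 15 chromaffin cell markers, 8 were named on the array and 7 analysed, while Slc18a2 was too dim. Th, Dbh and Ddc are among the 7, so this list is not independent of the genes described above. By the brightest probe set of each, 1 was at least 2-fold lower with digestion at day 7 (4.43% of all analysed) and for the day in digested samples (30 of the 632). It was the neuropeptide gene Npy (log2 -2.69 and -3.31, resting on a digested day 7 signal of 58.2, near the floor). For the day in undigested samples 2 were at least 2-fold higher, Dbh and Penk (log2 1.06), where 7.28% of all analysed were. Leaving the values as deposited moves that contrast by -0.23, so the Penk call rests on the scaling. Of the 7, 5 were above 0 there and 2 below, Snap25 (-0.77) and Npy (-0.61). Penk, the enkephalin precursor gene, read 1973 in the digested and 2012 in the undigested sample at day 7, against 1168 in the digested and 967 in the undigested sample at day 1. Of 12 neuron markers 10 were analysed, and the summed signal of the 11 named on the array was 143103 and 188690 in the digested and undigested day 7 samples and 221244 and 204891 in the digested and undigested day 1 samples. The sum weights each marker by its brightness, and its members went both ways: for digestion at day 7, 7 of 10 were below 0 and 3 above, Snap25 (0.11), Gap43 (0.58) and Grin1 (1.39). Snap25, the largest term, was lowest on the undigested day 7 array.

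Of 6 astrocyte markers 2 were analysed, with a summed signal over the 4 named on the array of 3821 and 3104 in the digested and undigested day 7 samples, against 7304 and 7073 in the digested and undigested day 1 samples. Of 8 markers of oligodendrocytes and Schwann cells 2 were analysed, with sums over the 4 named of 2566, 3476, 2486 and 2453 in the same order. The only named markers of macrophages, Itgam, and of fibroblasts, Vim, were dim, at or under 123 and 21.5. None of the markers listed for adrenal cortex or endothelium had a probe set of that name. The astrocyte sum is nearly all Glul, the glutamine synthetase gene, at 3356 and 2499 in the digested and undigested day 7 samples, against 6904 and 6550 in the digested and undigested day 1 samples. None of the other 3 named astrocyte markers was lower at day 7 in both states by its brightest probe set. The day differences in digested and undigested samples were 0.23 and -0.11 for Slc1a3, the only one of them analysed. They were 0.10 and 0.55 for Slc1a2 and 0.39 and 0.89 for S100b, both dim. The undigested day 1 signal of S100b, 46.3, was under the floor. The part of other cell types in the differences of the 4 enzyme genes was not tested.

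**Figure D5:**
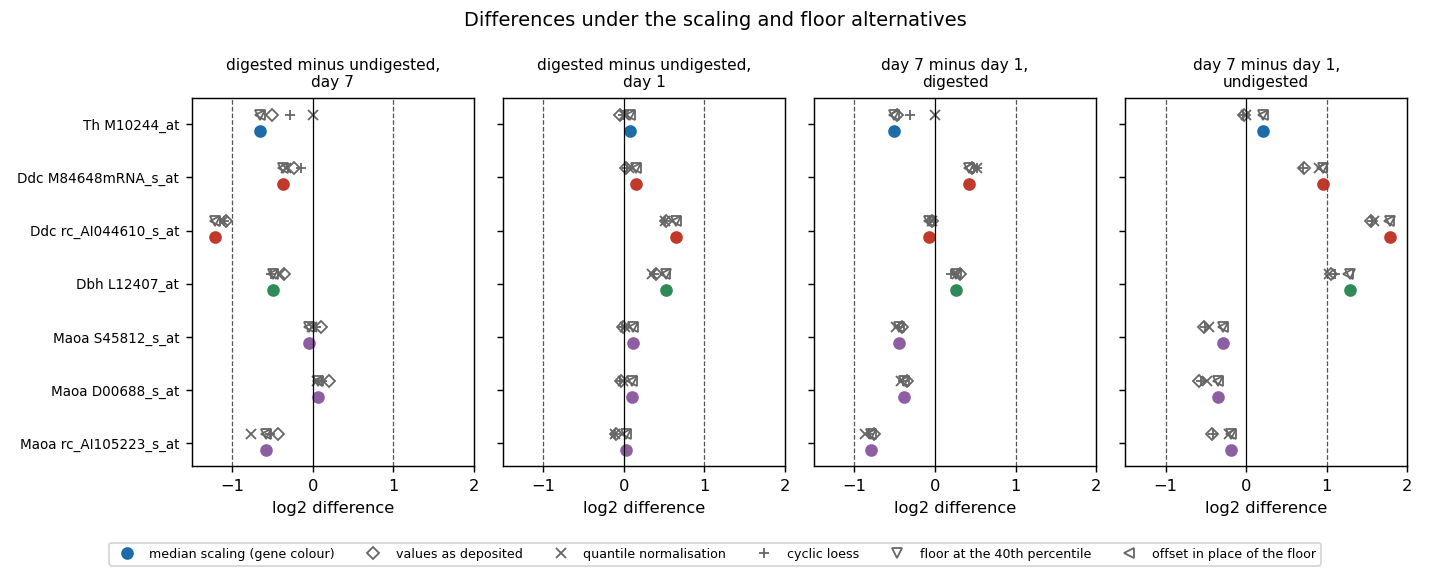
Log2 difference (horizontal axes) of each of the 7 probe sets in the 4 comparisons with the main median scaling (coloured points) and under 5 alternatives (grey symbols), with dashed lines at 2-fold. None of the 28 differences crosses 2-fold under an alternative, and the widest movement is that of Th under quantile normalisation.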

How the data were processed

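Gene expression was measured in 4 rat samples on single-channel oligonucleotide arrays. The deposited table holds linear signal intensity for 1322 probe sets, 59 of them controls; the sources used here do not give how the authors computed and scaled the signals. Of the other 1263 probe sets, 1137 named 1 gene, 8 several and 118 none in the platform's probe table, and the gene identifiers of all 7 probe sets of the 4 genes carry the same symbols in the RefSeq gene table.

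Signals were multiplied per array so that the median of the 1263 probe sets was equal on all (factors 0.984, 1.09, 1.01 and 0.925 for digested and undigested day 7 and digested and undigested day 1), raised to the 20th percentile where lower, and log2-transformed. The upper part of the probe sets by mean log2 signal (229 or more) was analysed. With 1 array per group the comparisons had no test, and the small number of arrays limits the precision. The additive fit of digestion and day used limma 3.58.1 in R 4.3.3, with Benjamini-Hochberg adjustment over all 632 analysed probe sets. Other steps used Python 3.11.15, numpy 2.4.6, pandas 2.3.3 and matplotlib 3.10.9, and the steps were tested on simulated data. The alternatives were values as deposited, quantile normalisation, cyclic loess, a 40th percentile floor, an added offset instead of any floor, no filter, the brighter 316 analysed probe sets, and thresholds of 1.5-fold and 3-fold.

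The genes and lists were chosen with earlier results of these data known. Named genes were every probe set of Th, Ddc, Dbh and Maoa, the genes of a pathway list on the array, the genes of a list of regulators, and for each of the 4 genes the 4 nearest in pattern. The motifs searched upstream were chosen after the signals were seen. Upstream sequences are from RefSeq, GRCr8.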

Additional observations from a re-analysis of the deposited data

Results flagged for a closer look

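The digestion difference ran in opposite directions at day 7 and day 1 for 6 of the 7 probe sets, each day with 1 digested and 1 undigested array, and the difference between the days was not tested. The log2 value at day 7 less the one at day 1 was -0.72 for Th, -0.52 for M84648mRNA_s_at and -1.86 for rc_AI044610_s_at of Ddc, -1.02 for Dbh, and -0.15 for S45812_s_at and -0.61 for rc_AI105223_s_at of Maoa. The median of this value over all 632 analysed probe sets was -0.18, and 60.0% of them were below 0. For Th and Maoa the sign at day 1 rests on the scaling, and for S45812_s_at of Maoa the sign at day 7 does as well.

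The same numbers are the day difference in digested minus that in undigested samples. The day difference ran in opposite directions in the 2 digestion states for Th (-0.72) and for rc_AI044610_s_at of Ddc (-1.86), also untested. For Th this rests on the scaling. Its day difference in undigested samples was 0.21 with median scaling, -0.02 in the values as deposited and -0.04 with cyclic loess.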

How the results depend on the processing

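Of the 28 differences of the 7 probe sets, 20 kept their sign under all 5 scaling and floor alternatives, 2 became exactly 0 under one of them, and 0 crossed 2-fold in 140 comparisons. The 6 that changed sign in 14 of these were small: both non-tag Maoa probe sets, the tag-named one and Th at day 1 for digestion, S45812_s_at of Maoa at day 7 for digestion, and Th between the days in undigested samples. The 2 set to 0, which also moved beyond the spread between probe sets of a gene, are those of Th for digestion at day 7 and for the day in digested samples under quantile normalisation, which sets the brightest probe set to 0 difference by construction. Counts of all analysed probe sets past 2-fold are given for digestion at day 7, digestion at day 1, the day in digested and the day in undigested samples. Without the filter they were 273, 208, 242 and 284 of 1263, among the brighter analysed probe sets 12, 0, 11 and 30 of 316, at 1.5-fold 176, 73, 150 and 235, and at 3-fold 25, 8, 18 and 20, against 72, 22, 51 and 84. The higher and lower shares shifted with scaling: at day 7 for digestion 44 higher and 28 lower became 53 and 20 in the values as deposited. At day 1, 13 and 9 became 7 and 12 as deposited, and 11 and 12 with quantile normalisation or cyclic loess. For the day in undigested samples 46 and 38 became 20 and 59 as deposited, 29 and 52 (quantile) and 27 and 50 (cyclic loess). The day term of limma's additive fit called 1 probe set, against 0 in the values as deposited, after quantile normalisation, without the filter and among the brighter probe sets, 4 after cyclic loess, 17 with the higher floor and 3 with the offset; the cause was not tested. None of the 7 probe sets had a limma adjusted p under 0.05 for day or digestion in the main fit or in these 5 alternatives, the lowest being 0.218. No replicate could be left out with 1 array per group.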
